A study of Mus musculus with 11 samples.

Results

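The BCL2 family genes Bcl2a1a, Bcl2a1b, Bcl2a1d, Mcl1 and Bcl2l1 (pro-survival) and Bcl2l11, Bbc3, Pmaip1, Bid and Bax (pro-death) were taken from count tables of BV2 microglia cells by their gene symbols, which gave 10 members of the 36529 genes listed. BV2 is a transformed mouse microglia line of C57BL/6 origin, so that all samples come from a single cell line. In one experiment, 3 samples received nApoE4, the amino-terminal fragment of human apolipoprotein E4 holding residues 1 to 151, at 25 μg/ml for 5 h, and 3 control samples (Control A) received no fragment. In the other experiment, 2 samples received nApoE3, the same stretch of apolipoprotein E3, at the same dose and time, and 3 further samples served as controls (Control B). The fragments differ at a single residue, arginine in nApoE4 and cysteine in nApoE3, and both carried a histidine tag. The sample labels call the controls untreated, their protocol names PBS vehicle, and the methods of the study name conditioned medium. Fragment and experiment cannot be told apart in a direct comparison of the treated samples, and each fragment was therefore compared with the controls of its own experiment. The study speaks of independent measurements, but neither it nor the labels say which of these samples came from separate cultures, so that p-values measure the spread between these samples, which may be technical.

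The BCL2 family decides at the outer membrane of the mitochondrion whether a cell starts intrinsic apoptosis. Pro-survival members hold the effectors BAX and BAK in check, BH3-only members bind the pro-survival members or activate the effectors directly, and active effectors let cytochrome c out to start the caspases. In myeloid cells, A1 proteins (the products of the Bcl2a1 genes) and MCL1 are known as short-lived survival factors under control of inflammatory signals.

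Levels are given as CPM, the counts of a gene for every 1000000 counts on genes of its library. The depth was 39732710 to 69768666 counts on genes per library, at which 3 counts correspond to 0.0430 to 0.0755 CPM. Levels of members were scaled over the 11 libraries by TMM, a method that trims extreme genes before libraries are set to a common scale. A gene was called higher or lower at an adjusted p-value under 0.05 in edgeR's quasi-likelihood test with Benjamini-Hochberg adjustment over all genes tested. Of 11 microglia markers, 8 had a mean of at least 1 CPM and their sum was 2415 to 3839 CPM per library, while P2ry12 was listed at 0 in all 11 libraries. The markers Aif1 and Cx3cr1 were also low, with group means of 0.030 to 0.096 CPM and 0.12 to 0.60 CPM. Of 14 markers of other brain cells, 3 reached a mean of 1 CPM and their sum was 12.2 to 30.3 CPM. In bulk RNA, fewer cells of a kind and less RNA per cell cannot be told apart. Control A replicate 2 stood furthest from its group, with a chi-square per degree of freedom of 47.9 against Control A replicate 3, where the replicate pairs of Control B had 3.15 to 4.01.

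Following treatment with nApoE4, all 5 pro-survival members rose and 3 of 5 pro-death members rose, Bcl2l11, Bid and Bbc3. Thus 8 of 10 members were higher and 0 were lower, where 28.6% of the 14240 genes tested were higher and 28.6% were lower. With nApoE3, the same 5 pro-survival members rose, 3 pro-death members rose (Bcl2l11, Bid and Bax), and Bbc3 fell. This gave 8 members higher and 1 lower, where 33.1% of 14817 genes were higher and 34.6% were lower. The median log2 fold change of the pro-survival members was 4.57 with nApoE4 and 3.94 with nApoE3, and that of the pro-death members was 0.18 with either fragment. Over all genes tested these medians were 0.0013 and -0.0026. The Bcl2a1 copies supply 3 of the 5 pro-survival values and resemble each other in sequence, so that both pro-survival medians are values of a Bcl2a1 copy.

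**Figure D1:**
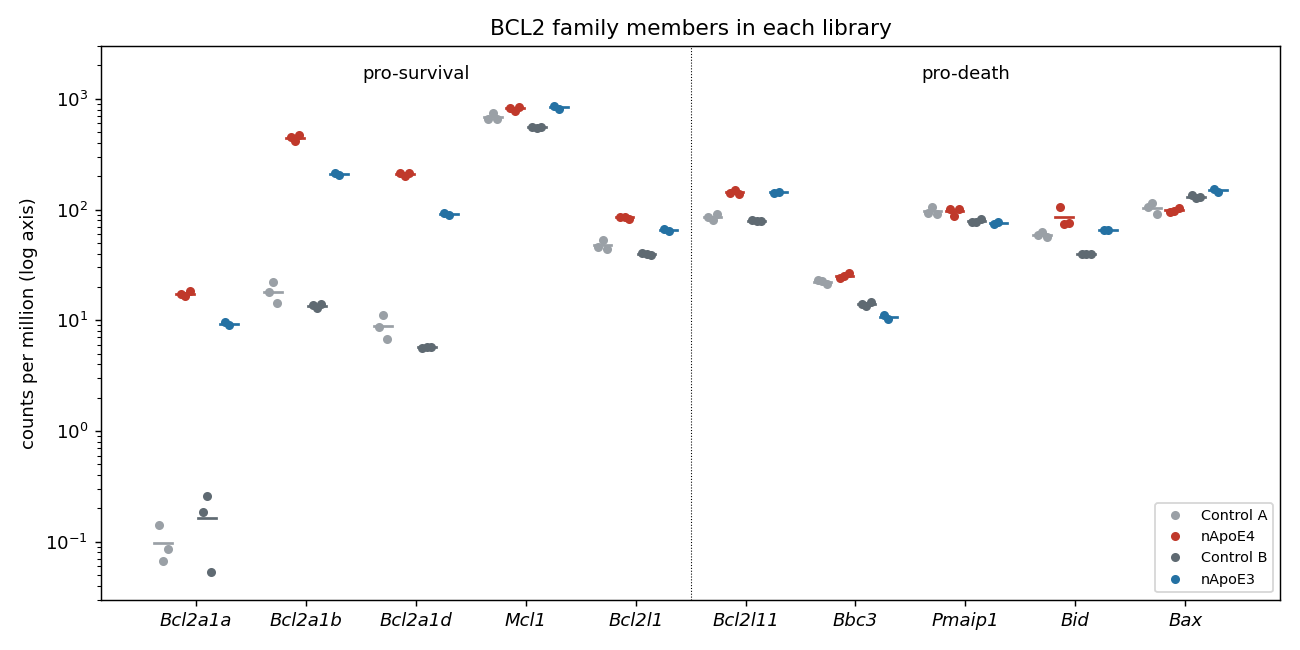
CPM (log axis) of the 10 members in each of the 11 libraries, with 1 point per library and a line at each group mean. The treated libraries lie far above their controls for the 3 Bcl2a1 copies, by less than 2-fold for Mcl1, Bcl2l1, Bcl2l11 and Bid, and overlap the controls for Pmaip1 and, with nApoE4, for Bax.

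The Bcl2a1 genes code for A1, a pro-survival protein of white blood cells, and lie on chromosome 9 as near-identical copies. Their coding sequences are 519 bases each in the GENCODE transcripts, and differ at 11 positions between Bcl2a1a and Bcl2a1b, 7 between Bcl2a1a and Bcl2a1d and 6 between Bcl2a1b and Bcl2a1d. The first 90 coding bases, the stretch of that length with most differences, are shown because they let reads be assigned to a copy. They run from the start codon, with capitals at the 6 positions where the 3 copies are not all alike. The stretches lie at chr9:88957051-88957140 on the plus strand, chr9:89199360-89199449 on the plus strand and chr9:88731630-88731719 on the minus strand of GRCm38, in that order.
Bcl2a1a: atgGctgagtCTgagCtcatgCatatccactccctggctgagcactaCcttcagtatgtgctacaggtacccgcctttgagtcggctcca
Bcl2a1b: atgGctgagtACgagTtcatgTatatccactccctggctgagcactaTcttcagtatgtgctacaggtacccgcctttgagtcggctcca
Bcl2a1d: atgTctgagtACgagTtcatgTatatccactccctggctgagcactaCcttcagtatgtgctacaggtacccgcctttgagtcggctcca

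Bcl2a1b, the most abundant copy, stood at 17.8, 22.0 and 14.3 CPM in Control A and at 448, 414 and 467 CPM with nApoE4. In the other experiment it stood at 13.7, 12.9 and 14.0 CPM in Control B and at 213 and 206 CPM with nApoE3. Every treated library lay above every control library. The log2 fold change was 4.63 ± 0.15 (SE) with nApoE4 (edgeR adjusted p = 6.54e-09) and 3.94 ± 0.035 with nApoE3 (edgeR adjusted p = 1.08e-15), that is 24.7-fold and 15.4-fold.

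Bcl2a1d followed the same order at a lower level, with 8.69, 11.1 and 6.73 CPM in Control A and 214, 200.2 and 214 CPM with nApoE4. It had 5.58, 5.77 and 5.71 CPM in Control B and 92.2 and 89.9 CPM with nApoE3. The groups again did not overlap, and the log2 fold change was 4.57 ± 0.15 with nApoE4 (edgeR adjusted p = 8.89e-09) and 3.995 ± 0.039 with nApoE3 (edgeR adjusted p = 1.93e-15).

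Bcl2a1a was close to the limit of detection in the controls, with 6, 3 and 4 counts in Control A and 13, 16 and 3 in Control B. With nApoE4 it had 742, 682 and 737 counts, and with nApoE3 556 and 515. Taking the counts of a group together against its summed depth, the level was 169 times that of Control A (95% exact interval 98.8 to 319) and 50.1 times that of Control B (95% exact interval 35.3 to 73.6). These intervals cover counting error only. The fitted log2 fold changes, which depend on the prior count for a gene at this level, were 7.45 ± 0.17 (edgeR adjusted p = 1.19e-09) and 5.76 ± 0.23 (edgeR adjusted p = 3.76e-10).

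Because the copies share sequence, their levels relative to one another depend on how reads were assigned. Of the 75-base windows of each transcript, 44.8% for Bcl2a1a (334 of 745), 56.5% for Bcl2a1b (420 of 743) and 32.4% for Bcl2a1d (256 of 789) occurred in no other gene, leaving out genes that overlap the copies in the annotation, and 191 windows occurred in all 3 copies. Bcl2a1b took 65.7 to 70.9% of the counts on the 3 copies and Bcl2a1d 28.7 to 33.5% in every library. Bcl2a1a took 0.202 to 1.37% of them in the control libraries and 2.55 to 3.04% in the treated libraries, with no overlap. Per 100 unshared windows, Bcl2a1b and Bcl2a1d lay closer, at 4098 to 4574 and 3250 to 3579 counts with nApoE4, while Bcl2a1a had 204 to 222. In GENCODE, 401 of the 817 exon bases of Bcl2a1b are shared with Gm29094 on the same strand. The division between copies is thus uncertain, and the 3 were also tested as a sum.

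**Figure D2:**
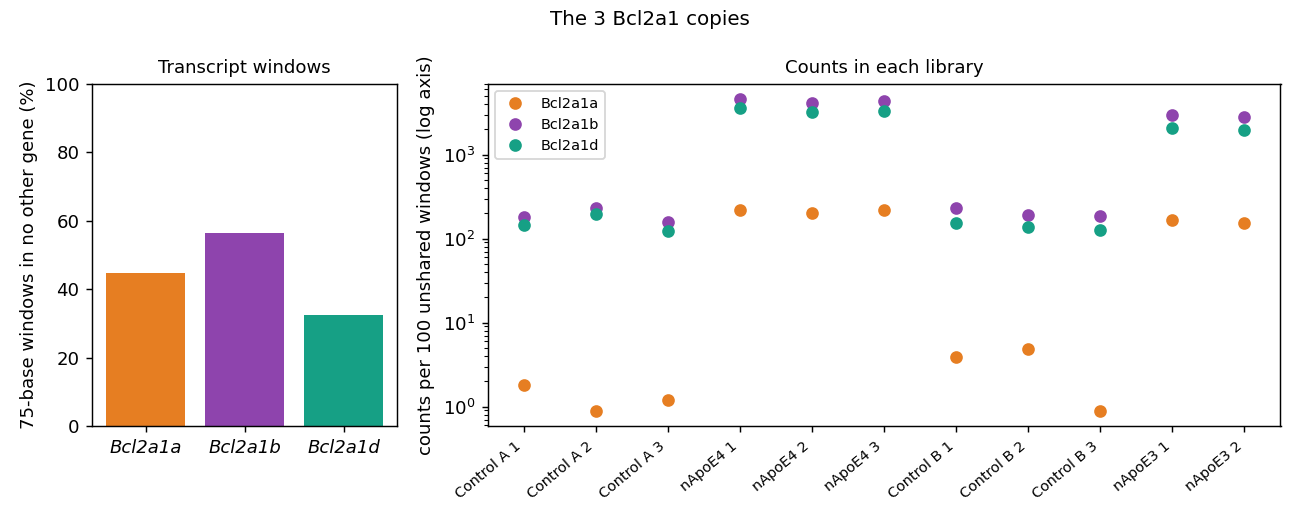
Left, share of the 75-base windows of each Bcl2a1 transcript found in no other gene (%). Right, counts per 100 such windows in each library (log axis), where Bcl2a1b and Bcl2a1d lie close together and Bcl2a1a lies below both in all 11 libraries.

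The Bcl2a1 sum stood at 21.1 to 33.1 CPM in Control A, 630.7 to 699.8 CPM with nApoE4, 18.9 to 19.8 CPM in Control B and 305 to 314 CPM with nApoE3. It rose by 4.64 ± 0.15 on the log2 scale with nApoE4 (edgeR adjusted p = 9.32e-09) and by 3.99 ± 0.030 with nApoE3 (edgeR adjusted p = 2.69e-16). The difference of these responses was 0.64 ± 0.17 (95% interval 0.28 to 1.00; edgeR adjusted p = 0.0121), with the larger response to nApoE4. Without nApoE3 replicate 2 this difference was 0.61 with an edgeR adjusted p of 0.0554.

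Mcl1, a short-lived pro-survival protein needed by most cells, stood at 656, 741 and 658 CPM in Control A and 834, 773 and 850 CPM with nApoE4. It stood at 553, 541 and 561 CPM in Control B and 858 and 813 CPM with nApoE3. Treated and control libraries did not overlap in either experiment, although the highest control library, Control A replicate 2, came close to the lowest treated one. The log2 fold change was 0.26 ± 0.075 with nApoE4 (edgeR adjusted p = 0.0132) and 0.59 ± 0.025 with nApoE3 (edgeR adjusted p = 6.01e-10). The nApoE4 call was lost without Control A replicate 1 (0.0696), nApoE4 replicate 1 (0.0554) or nApoE4 replicate 3 (0.0631), each an edgeR adjusted p.

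Bcl2l1 codes for BCL-XL, the long-lived pro-survival member. It stood at 46.3, 52.7 and 43.6 CPM in Control A and 85.9, 85.8 and 82.7 CPM with nApoE4. In the other experiment it had 40.4, 39.7 and 39.0 CPM in Control B and 67.2 and 63.9 CPM with nApoE3. All treated libraries were above all controls, with log2 fold changes of 0.84 ± 0.073 (edgeR adjusted p = 7.71e-06) and 0.72 ± 0.034 (edgeR adjusted p = 1.64e-09).

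Levels of different genes were compared per kilobase of exon. In Control A, Mcl1 was the most abundant pro-survival transcript at 200.4 ± 14.3 CPM per kilobase (SD, n = 3), above Bcl2a1b at 22.1 ± 4.72 and Bcl2l1 at 10.4 ± 1.02. With nApoE4, Bcl2a1b was at 542 ± 32.7, Bcl2a1d at 243 ± 9.29 and Mcl1 at 239.6 ± 11.8 CPM per kilobase (SD, n = 3), and with nApoE3 Bcl2a1b was at 256 ± 5.64, Mcl1 at 244 ± 9.26 and Bcl2a1d at 105 ± 1.91 (SD, n = 2). This scale understates the copies, since only part of each can hold a read that is counted. Per 1000 windows found in no other gene, a scale added after the data were seen on which the longest transcript of Mcl1 keeps 100% of its windows, Bcl2a1b was at 1055 ± 63.6, Bcl2a1d at 818 ± 31.3 and Mcl1 at 245 ± 12.1 CPM with nApoE4 (SD, n = 3). With nApoE3 they were at 499 ± 10.98, 356 ± 6.46 and 249.8 ± 9.46 CPM (SD, n = 2). Bcl2a1b thus lay above Mcl1 in the treated groups on both scales with no overlap of ranges, while the place of Bcl2a1d against Mcl1 depended on the scale. Per kilobase with nApoE3 the order was narrow, with 252.3 to 260.3 for Bcl2a1b and 237.9 to 250.9 for Mcl1 (n = 2). In the controls Mcl1 lay above every copy on both scales. Among the pro-death members, Bax was the most abundant per kilobase of exon in every group, with means of 62.3 to 94.3.

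Bcl2l11 codes for BIM, a BH3-only protein that binds all pro-survival members. Its level was 86.2, 80.2 and 90.6 CPM in Control A and 141, 151 and 139 CPM with nApoE4, against 80.3, 78.8 and 79.4 CPM in Control B and 142 and 145 CPM with nApoE3. The treated libraries lay above their controls with no overlap, and both treated groups reached about the same level. The log2 fold change was 0.75 ± 0.067 with nApoE4 (edgeR adjusted p = 8.56e-06) and 0.84 ± 0.026 with nApoE3 (edgeR adjusted p = 2.89e-11).

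Bid, the BH3-only protein that caspase-8 cleaves to link death receptors to the mitochondrion, stood at 58.9, 62.3 and 56.8 CPM in Control A and 105, 74.3 and 76.2 CPM with nApoE4. It stood at 39.5, 39.5 and 39.3 CPM in Control B and 66.0 and 64.9 CPM with nApoE3. No treated library overlapped its controls, and nApoE4 replicate 1 stood above the other two of its group. The log2 fold change was 0.53 ± 0.12 with nApoE4 (edgeR adjusted p = 0.00438) and 0.72 ± 0.030 with nApoE3 (edgeR adjusted p = 4.73e-10). In GENCODE, 17.7% of the exon bases of Bid lie opposite exons of Bcl2l13, so that without strand in the counting part of its reads may be counted on neither gene.

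Bbc3 codes for PUMA, a BH3-only protein known as a p53 target. It was at 23.2, 22.7 and 21.2 CPM in Control A and 24.0, 25.2 and 26.6 CPM with nApoE4, a log2 fold change of 0.18 ± 0.068 (edgeR adjusted p = 0.0454). It was at 13.9, 13.4 and 14.6 CPM in Control B and 11.2 and 10.4 CPM with nApoE3, a log2 fold change of -0.38 ± 0.059 (edgeR adjusted p = 0.000103). The groups did not overlap in either experiment, but the nApoE4 libraries were higher and the nApoE3 libraries lower than their controls. The nApoE4 call rested on the exact set of libraries and on the tool. Its adjusted p was 0.0988 with DESeq2 and, in edgeR, 0.123 with all genes of at least 1 count, 0.0715 and 0.15 without Control A replicates 1 and 3, and 0.0507, 0.11 and 0.164 without nApoE4 replicates 1, 2 and 3.

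Pmaip1 codes for NOXA, a BH3-only protein that binds MCL1 and A1. It had 94.0, 104.7 and 91.5 CPM in Control A, 101, 86.5 and 102 CPM with nApoE4, 77.2, 77.4 and 81.7 CPM in Control B and 73.9 and 77.2 CPM with nApoE3. Treated and control libraries overlapped in both experiments. The log2 fold changes were 0.0011 (95% interval -0.18 to 0.18; edgeR adjusted p = 0.992) and -0.066 (95% interval -0.14 to 0.011; edgeR adjusted p = 0.116), and Pmaip1 was called with neither fragment.

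Bax, the effector that forms pores in the outer mitochondrial membrane, stood at 106, 114 and 90.9 CPM in Control A and 94.6, 96.2 and 104 CPM with nApoE4. The nApoE4 libraries lay inside the range of their controls, with a log2 fold change of -0.074 (95% interval -0.27 to 0.12; edgeR adjusted p = 0.486). In the other experiment it stood at 135, 127 and 129 CPM in Control B and 154 and 144 CPM with nApoE3, with no overlap and a log2 fold change of 0.18 ± 0.034 (edgeR adjusted p = 0.000495). In a fit over all 11 samples the nApoE3 value was 0.19 with an edgeR adjusted p of 0.064. Gm45808 shares 12.2% of the exon bases of Bax on the same strand.

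**Figure D3:**
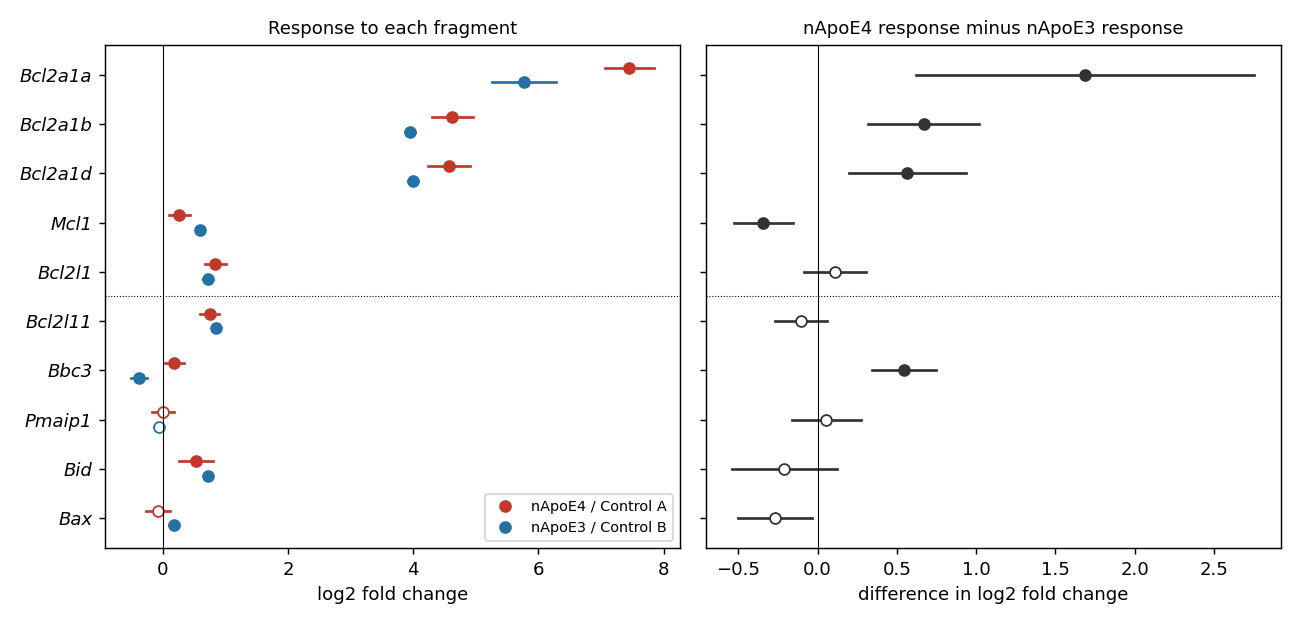
Left, log2 fold change of each member with nApoE4 against Control A and with nApoE3 against Control B. Right, the nApoE4 response minus the nApoE3 response. Lines are 95% intervals, filled points have an adjusted p under 0.05 and open points do not, and the dotted line parts pro-survival (above) from pro-death members (below). The Bcl2a1 copies stand at 3.94 to 7.45 on the left, all other members between -0.38 and 0.84.

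The response to nApoE4 was then tested against the response to nApoE3 as an interaction over all 11 samples. It was larger for 4 members, Bcl2a1a, Bcl2a1b, Bcl2a1d and Bbc3, and smaller for 1, Mcl1, where 14.4% of 15287 genes were higher and 13.9% lower in this test. For Bcl2a1a the difference in log2 fold change was 1.69 ± 0.49 (edgeR adjusted p = 0.0215), on few control counts. It was not called without Control B replicate 1 (1.61, edgeR adjusted p = 0.0655) or replicate 2 (1.26, edgeR adjusted p = 0.102). For Bcl2a1b it was 0.67 ± 0.16 (edgeR adjusted p = 0.00752). This call was kept whichever library was left out, but lost in a fit pairing same-numbered libraries (edgeR adjusted p = 0.0689). For Bcl2a1d it was 0.57 ± 0.17 (edgeR adjusted p = 0.0252), and was not called without Control A replicate 1 (0.0569), nApoE4 replicate 1 (0.0511) or 3 (0.0536), Control B replicate 2 (0.0576) or 3 (0.0531), or nApoE3 replicate 1 (0.0697) or 2 (0.0854), each an edgeR adjusted p.

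For Bbc3 the difference was 0.55 ± 0.092 (edgeR adjusted p = 0.000696), and it was called whichever library was left out. For Mcl1 it was -0.34 ± 0.085 (edgeR adjusted p = 0.00898), with a smaller response to nApoE4, and without nApoE3 replicate 1 the edgeR adjusted p was 0.065. The treated levels of Mcl1 were close, at 819 ± 40.5 CPM (SD, n = 3) with nApoE4 and 835 ± 31.6 CPM (SD, n = 2) with nApoE3, while Control A stood at 685 ± 48.8 and Control B at 552 ± 10.5 CPM (SD, n = 3 each).

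For the other 5 members the difference was not called, which does not show that they responded alike. The difference was 0.11 for Bcl2l1 (95% interval -0.085 to 0.31), -0.10 for Bcl2l11 (-0.27 to 0.059), 0.055 for Pmaip1 (-0.16 to 0.27), -0.21 for Bid (-0.54 to 0.12) and -0.27 for Bax (-0.50 to -0.032). Single libraries decided some of these. Without nApoE4 replicate 1 the difference for Bid was -0.39 (edgeR adjusted p = 0.00207), without Control A replicate 3 that for Bax was -0.35 (edgeR adjusted p = 0.00476), and without Control A replicate 2 that for Bcl2l1 was 0.19 (edgeR adjusted p = 0.0221). The number of members called in this test ranged from 3 to 6 as libraries were left out, with 3 without Control B replicate 2 or nApoE3 replicate 1.

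The controls of both experiments differed from each other for most members. In Control B against Control A, 1 of 9 members tested was higher (Bax, log2 0.31 ± 0.081, edgeR adjusted p = 0.00862) and 7 were lower, where 34.4% of 14249 genes were higher and 34.9% lower. Bbc3 differed most, at -0.70 ± 0.062 (edgeR adjusted p = 2.38e-05), followed by Bcl2a1d at -0.65 ± 0.16 (edgeR adjusted p = 0.00733) and Bid at -0.61 ± 0.048 (edgeR adjusted p = 1.29e-05). Bcl2l11 was at -0.12 ± 0.053 (edgeR adjusted p = 0.0649), and Bcl2a1a had too few counts to be tested. The differences in response above use these same controls, and the part of culture, extraction and sequencing of each experiment in them was not tested.

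As a description of both sides together, the mean log2 CPM of the pro-death members was subtracted from that of the pro-survival members in each library. The result was -2.09, -2.08 and -2.27 in Control A and 1.03, 1.05 and 1.09 with nApoE4. It was -2.05, -1.95 and -2.31 in Control B and 0.64 and 0.60 with nApoE3. The sign of this value thus changed in both experiments, with a shift of 3.20 on the log2 scale with nApoE4 and 2.72 with nApoE3. It gives each gene the same weight and counts the Bcl2a1 copies 3 times, so its sign does not tell which side had more transcripts. In CPM, Mcl1 stood at 685 in Control A and 552 in Control B, above every pro-death member, of which Bax was highest at 104 and 131. With Mcl1 and Bcl2l1 as the only pro-survival members, the shifts were 0.28 and 0.39, and the value was above 0 in all 11 libraries.

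**Figure D4:**
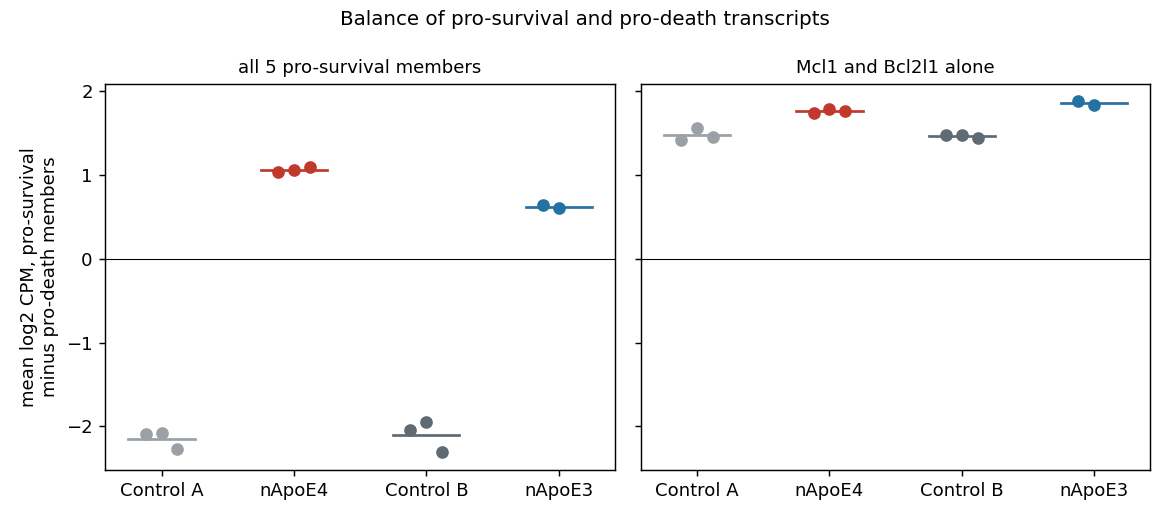
Mean log2 CPM of the pro-survival members minus that of the 5 pro-death members in each library, with a line at the group mean. With all 5 pro-survival members (left) the controls lie below 0 and the treated libraries above it, and with Mcl1 and Bcl2l1 alone (right) all libraries lie between 1.42 and 1.88.

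Promoter sequences, 250 bases before to 50 after each start site, were taken from RefSeq (GRCm38.p6), where 9 of the 10 members had an entry and Pmaip1 had none. They were searched on both strands for a few short motifs whose factors belong to inflammatory and stress signalling. AP-1 (TGANTCA, in 7.81% of 32851 promoters), PU.1 (GAGGAAGT, in 3.20%) and ATF4/CHOP (TGATGNAA, in 3.97%) each occurred in all 3 Bcl2a1 copies. The AP-1 and PU.1 matches lie in the same order within a shared stretch, shown here because all 3 copies rose together. The capitals mark the AP-1 string first and the PU.1 string second. The AP-1 string lets any base stand at its centre, which is A in all 3 copies. The label AP-1 thus stands for a match to this loose string only, and a stricter form was not tested. The stretches lie at chr9:88956782-88956841 (plus strand), chr9:89199091-89199150 (plus strand) and chr9:88731929-88731982 (minus strand), upstream of the start.
Bcl2a1a: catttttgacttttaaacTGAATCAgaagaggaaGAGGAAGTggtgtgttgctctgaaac
Bcl2a1b: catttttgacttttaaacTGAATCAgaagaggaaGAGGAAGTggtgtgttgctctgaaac
Bcl2a1d: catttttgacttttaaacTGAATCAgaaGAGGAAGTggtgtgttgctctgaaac
The stretch is the same in Bcl2a1a and Bcl2a1b, and 54 bases long in place of 60 in Bcl2a1d, where the matches stand closer together.

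A kB match (GGG, any 2 bases, then TTTCC, in 1.63% of promoters) was found in Mcl1 and in 1 of 3 promoters each of Bcl2l1 and Bbc3. A FOXO match (TGTTTAC, in 3.65%) was found in 1 of 2 promoters of Bcl2l11 and 1 of 3 of Bbc3, and an E-box (CACGTG, in 7.15%) in Bbc3 and Bax. The Mcl1 and Bcl2l11 matches, both on the reverse strand, are shown in capitals, as examples of a pro-survival and a pro-death member that rose with both fragments. They lie at chr3:95658673-95658720 and chr2:128125791-128125837, both on the plus strand.
Mcl1: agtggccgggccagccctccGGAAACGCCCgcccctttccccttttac
Bcl2l11: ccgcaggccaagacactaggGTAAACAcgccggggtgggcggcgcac
A match is a string of letters, and no binding was measured here.

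Some of these factors are on a list of 14 upstream genes, of which 13 were tested. The list holds transcription factors and also targets of p53 such as Mdm2. Values after ± in the levels of these and the following genes are SDs over the libraries of a group. With nApoE4, 10 were higher and 3 lower, where 28.6% of all genes tested were higher and 28.6% lower, and the median log2 was 1.59. With nApoE3, 10 were higher and 3 lower, where 33.1% of all genes were higher and 34.6% lower, and the median was 1.01. Nfkb1, a kB-binding subunit, went from 123 ± 3.27 to 588 ± 22.6 CPM with nApoE4 (log2 2.26, edgeR adjusted p = 3.57e-09) and from 134 ± 3.05 to 589 ± 0.894 CPM with nApoE3 (log2 2.13, edgeR adjusted p = 4.69e-15). Relb, another kB-binding subunit, rose by 3.30 with nApoE4 and by 1.92 with nApoE3, a difference of 1.37 (edgeR adjusted p = 5.22e-07). Mdm2, the p53 target that brakes p53, rose by 1.59 and 2.08, and Myc rose by 3.63 and 3.51 from under 1 CPM in both control groups. The FOXO genes on the list were lower, with log2 fold changes of -0.54 and -0.96 for Foxo1 and -1.51 and -0.76 for Foxo3. Atf4 rose by 0.87 and 0.22, and Ddit3, which codes for CHOP, by 1.81 and 0.19. Spi1, which codes for PU.1 and is one of the microglia markers, rose by 1.35 and 1.01 on the log2 scale. Those markers did not move together, and the shares over all genes are those above. Of 8 markers tested with nApoE4, 2 were higher and 5 lower, and of 9 tested with nApoE3, 4 were higher and 5 lower. Ptprc rose by 0.95 and 0.87, while the log2 fold changes were -1.13 and -0.81 for Fcgr3 and -0.98 and -2.40 for Tmem119.

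Among 15 other BCL2 family genes, 10 were tested, with 3 higher and 5 lower for nApoE4 and 3 higher and 4 lower for nApoE3. The shares over all genes tested were 28.6% and 28.6% for nApoE4 and 33.1% and 34.6% for nApoE3, so that the number higher was near this background. Bmf, a BH3-only gene, fell from 31.3 ± 2.09 to 4.02 ± 0.464 CPM with nApoE4 (log2 -2.96, edgeR adjusted p = 1.06e-08) and from 16.2 ± 0.933 to 2.70 ± 0.017 CPM with nApoE3 (log2 -2.59, edgeR adjusted p = 2.01e-11). It thus moved opposite to the BH3-only members Bcl2l11 and Bid. Bcl2l2, which codes for the pro-survival BCL-W, rose by 0.71 and 0.66, and Bcl2l12 fell by 0.55 and 0.77 on the log2 scale. Bcl2, also pro-survival, did not move alike in the 2 experiments. Its log2 fold change was 0.38 with nApoE4 (edgeR adjusted p = 0.00871) and -0.34 with nApoE3 (edgeR adjusted p = 4.08e-05). That difference was 0.70 (edgeR adjusted p = 0.000604). Bnip3, a BH3-like gene of mitophagy, was at 385 ± 54.4 CPM in Control A and 75.2 ± 6.45 with nApoE4, but at 68.9 ± 7.16 in Control B and 85.3 ± 20.7 with nApoE3. Its responses differed by -2.66 (edgeR adjusted p = 6.47e-07), and the level in Control A stood above those of the other groups. Bak1, the other effector, was listed at 0 in all 11 libraries, as were Ripk3 and P2ry12. The annotation release, strand setting and overlap mode are not given, so that these zeros do not show a lack of expression. Of the exon bases of Bak1, 25.5% lie opposite Ggnbp1, and whether this has a part in its zeros was not tested.

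Of 15 apoptosome and caspase genes, 3 were higher and 7 lower with nApoE4 (background 28.6% and 28.6%), and 4 were higher and 10 lower with nApoE3 (background 33.1% and 34.6%). Casp9, the initiator caspase of the apoptosome, fell by 1.12 and 0.55 on the log2 scale, and that difference was -0.58 (edgeR adjusted p = 0.000104). Casp6, an executioner caspase, fell by 1.20 and 0.76. The nucleases Endog and Dffb fell by 0.95 and 0.32 with nApoE4 and by 0.78 and 1.01 with nApoE3. The median log2 over the list was -0.18 and -0.25.

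Of 9 caspase inhibitors and other brakes tested, 6 were higher, 0 were lower and 3 were not called with either fragment, against 28.6% higher and 28.6% lower of all genes with nApoE4 and 33.1% and 34.6% with nApoE3. Cflar, which codes for the caspase-8 inhibitor FLIP, rose from 42.0 ± 3.09 to 411 ± 13.5 CPM with nApoE4 (log2 3.30, edgeR adjusted p = 1.17e-09) and from 35.1 ± 1.95 to 310.2 ± 4.74 CPM with nApoE3 (log2 3.14, edgeR adjusted p = 6.37e-15). Birc3 and Birc2, ubiquitin ligases of TNF receptor signalling, rose by 2.63 and 0.94 with nApoE4 and by 2.29 and 0.24 with nApoE3. Xiap, the direct inhibitor of caspases, rose by 0.49 and 0.66.

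In the death receptor arm, 3 of 9 genes tested were higher and 3 lower for nApoE4, which is near the 28.6% and 28.6% over all genes, and 5 were higher and 2 lower for nApoE3, against 33.1% and 34.6%. Fas, a death receptor, rose from 0.271 ± 0.0908 to 25.7 ± 1.40 CPM with nApoE4 (log2 6.57, edgeR adjusted p = 1.15e-09) and from 1.29 ± 0.375 to 25.3 ± 1.53 CPM with nApoE3 (log2 4.31, edgeR adjusted p = 9.22e-12). Both treated groups ended at about the same level of Fas from different control levels. Ripk1, a kinase of TNF receptor signalling, fell by 0.41 and 0.43, while Mlkl, the effector of necroptosis, rose by 0.43 and 1.14 and Cyld, a deubiquitinase, by 0.70 and 0.29. Ripk3 was listed at 0 in all 11 libraries.

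Of 4 genes known for turnover of the MCL1 protein, 2 were higher and 0 lower for nApoE4 (background 28.6% and 28.6%), and 3 were higher and 1 lower for nApoE3 (background 33.1% and 34.6%), too few genes to set against those shares. Fbxw7, part of a ubiquitin ligase, rose by 0.59 and 0.32. Btrc, a subunit of another ligase, rose by 0.31 with nApoE4 and fell by 0.13 with nApoE3. Huwe1 and Usp9x, a ligase and a deubiquitinase of MCL1, rose by 0.20 and 0.12 with nApoE3 and had values of 0.38 (edgeR adjusted p = 0.114) and 0.28 (edgeR adjusted p = 0.0795) with nApoE4.

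**Figure D5:**
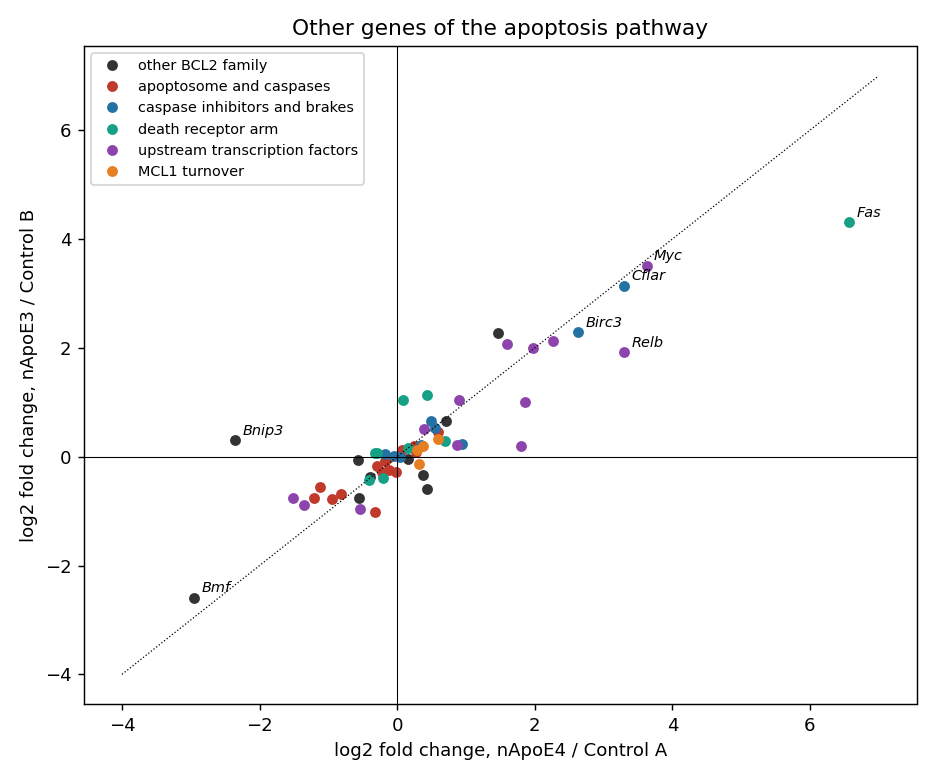
Log2 fold change with nApoE4 (x axis) against that with nApoE3 (y axis) for the tested genes of 6 lists around the BCL2 family, 1 point per gene, coloured by list, with a dotted line where both are equal. Fas, Cflar, Myc, Birc3 and Relb lie high on both axes, Bmf lies low on both, and Bnip3 is low with nApoE4 alone, at -2.35 against 0.30.

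The genes whose pattern was most like that of each member were found among 12415 genes by Pearson's r over the 11 libraries, on log2 CPM minus the mean of the controls of the same experiment. The libraries share groups and scaling, so that these values describe likeness of pattern only. Bcl2a1b was most like Clec4e (r = 0.9992), a receptor of innate immune cells, and H2-Q4 (r = 0.9991). Bcl2a1d was most like Mapkapk2, a kinase of the p38 pathway, and the chemokine gene Ccl9 (r = 0.9987 for both), and Bcl2a1a was most like Gbp4 (r = 0.9957) and Zfr (r = 0.9944). Mcl1 was most like Tfg (r = 0.9955) and Rrp9 (r = 0.9931), Bcl2l1 like Zfand2b (r = 0.9973) and Slc3a2 (r = 0.9968), and Bcl2l11 like Ppfia1 (r = 0.9988). The partners of Bbc3 (Map3k10, r = 0.9869, and Rab28, r = 0.9832), Bid (Tdg, r = 0.9885, and Kpna2, r = 0.9754) and Bax (Psmb3, r = 0.9555) were less similar. Those of Pmaip1 had the lowest values, with 0.9199 for Zmat2 and 0.9096 for Pin4.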

How the data were processed

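RNA of 11 samples of BV2 cells was sequenced. Per the labels, the authors used Trim Galore 0.5.0, FastQC 0.11.8, HISAT2 2.1.0 and HTSeq 0.11.0 with GRCm38.p6, and deposited raw counts of reads per gene for each sample. The annotation release, the strand setting and the overlap mode are not given in the sources used here. Reads that map to several places (11.7 to 13.2% of the tallied reads) were not counted on genes, which lowers near-identical copies, and tallies that name no gene (22.3 to 24.0%) were left out of library sizes.

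Counts were analysed in R 4.3.3 with edgeR 4.0.16 (filterByExpr, TMM, quasi-likelihood F test, Benjamini-Hochberg adjustment over all genes tested). Each fragment was fitted with its own controls, and the difference of responses and of controls was tested with 4 group means or between the control groups. Standard errors are approximate, from the fold change and its F statistic. The Bcl2a1 sum replaced the 3 copies in the table. Levels are CPM on TMM-scaled depth, log2 CPM used a prior count of 2, and exon lengths and transcripts are GENCODE's. Scripts were tested on simulated data. Groups came from the labels, and a chi-square of each pair within a group found no library deposited again in that group. Alternatives were DESeq2 1.42.0, its size factors, other count filters, a fit of all 11 samples, a replicate block and leaving out each library.

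The members and lists were chosen with earlier results of these data known. All 10 members are named, with the 2 genes most like each in pattern, of which 1 each for Bcl2l11 and Bax is not reported here. From each other list up to 4 genes are named, those with the largest log2 fold change for either fragment among genes called for it whose level averaged 1 CPM or more in any group. P2ry12, Bak1, Ripk3, Bcl2l13, the overlapping genes and the promoter motifs were singled out after the data were seen. So were Foxo1, Foxo3, Atf4, Ddit3, Bcl2, Aif1 and Cx3cr1, which fall outside that choice.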

Additional observations from a re-analysis of the deposited data

Results flagged for a closer look

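For 5 members and for the Bcl2a1 sum, the response to nApoE4 differed from that to nApoE3 in the interaction test of edgeR. Over all 15287 genes in this test, 14.4% were higher and 13.9% lower. The difference in log2 fold change was 1.69 for Bcl2a1a, 0.67 for Bcl2a1b, 0.57 for Bcl2a1d, 0.64 for the Bcl2a1 sum and 0.55 for Bbc3, all higher with nApoE4, and -0.34 for Mcl1, which was lower with nApoE4. Bcl2a1a had 3 to 16 counts in each control library. In Control B against Control A, the log2 difference was -0.70 for Bbc3, -0.65 for Bcl2a1d, -0.49 for the Bcl2a1 sum, -0.43 for Bcl2a1b and -0.33 for Mcl1. Whether that difference of experiments has a part in these values was not tested.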

How the results depend on the processing

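The calls for Bcl2a1a, Bcl2a1b, Bcl2a1d, Bcl2l1, Bcl2l11 and Bid with each fragment kept their direction and side of the threshold under each alternative that tested them, except that the filter of at least 10 counts in every sample left Bcl2a1a untested. Members called ranged from 6 to 8 with nApoE4 and 8 to 9 with nApoE3 over all alternatives. The difference between fragments was least stable, with 5 members called and 3 to 6 as each library was left out, and the difference for the Bcl2a1 sum ranged from 0.49 to 0.82, with 0.61 and an edgeR adjusted p of 0.0554 without nApoE3 replicate 2. The balance of pro-survival and pro-death members shifted by 3.14 to 3.24 with nApoE4 and 2.62 to 2.79 with nApoE3 as libraries were left out, and by 0.28 and 0.39 without the Bcl2a1 copies. Pmaip1 with nApoE4, which was not called under any alternative, changed sign, at -0.0080 with DESeq2, -0.021 with at least 1 count, -0.0043 in a fit of all 11 samples and -0.042 to 0.067 as libraries were left out.

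Replicate numbers are shared between groups in the labels, but same-numbered control and treated libraries did not deviate together (r = -0.10, -0.32 and -0.15 for nApoE4 and -0.0013 and -0.012 for nApoE3). These values give no sign of a pairing, but with so few libraries in a group they cannot exclude one. With a replicate block, 2 members and 2307 genes were called for the difference between fragments, where 5 and 4331 were called without it, the difference for the Bcl2a1 sum was 0.64 (edgeR adjusted p = 0.0763), and Pmaip1 with nApoE4 was at -0.00037. The 2 members still called for that difference were Bcl2a1a (0.0115) and Bbc3 (0.024). Those no longer called were Bcl2a1b (0.0689), Bcl2a1d (0.112) and Mcl1 (0.0962), each an edgeR adjusted p. The block also ended the calls of Mcl1 (0.0673) and Bbc3 (0.126) with nApoE4.

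Groups of 2 or 3 samples limit the spread that can be estimated, the nApoE3 group most. The coefficient of variation that edgeR fitted between replicates was 0.084 in the nApoE4 experiment and 0.026 in the nApoE3 experiment. The test of the difference used a common fit, with 0.067. Adjusted p-values of the fragments thus rest on unlike spreads. Depth limits Bcl2a1a in the controls, where 3 of 6 libraries had 3 or 4 counts. Per 1000 unshared windows in place of kilobases of exon, an alternative chosen after seeing the data, Bcl2a1d lay above Mcl1 in both treated groups, at 818 against 245 and 356 against 249.8 CPM.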
